A study of Rattus norvegicus with 12 samples.

Results

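Libraries read as endothelial cells and as smooth muscle cells of the rat pulmonary artery were compared under a control siRNA, as a baseline. The comparison used 6 of the 12 libraries of the series. Of these, 3 were read as primary pulmonary artery endothelial cells given a control siRNA (PAEC siControl). The other 3 were read as primary pulmonary artery smooth muscle cells given the same treatment (PASMC siControl). The remaining 6 served as a second look in separate libraries. They were read as PAEC and PASMC given an siRNA against NRF2 (siNRF2), with 3 libraries each. An siRNA is a small RNA duplex used to lower the level of a chosen mRNA, and NRF2 is a transcription factor of the oxidative stress response. All libraries are labelled as wild-type genotype and lung tissue. PAEC were grown in an endothelial growth medium and PASMC in a smooth muscle cell medium, so medium and cell type differ together. The design text calls the libraries of a group biological replicates, but no source used here states if each came from its own animal or culture, so p-values measure only the spread among libraries. Of 31044 autosomal genes (chromosomes 1 to 20) in the count table, 14037 passed a filter on low counts and are described here.

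Endothelial cells form the inner lining of the artery, where they face the blood, hold the barrier between blood and tissue and release signals that set vessel tone. Smooth muscle cells form the layer beneath, contract to narrow the vessel and make much of the matrix of the wall. Endothelial cells are usually recognised by genes such as Cdh5, Pecam1 and Vwf, and smooth muscle cells by contractile genes such as Acta2, Tagln and Myh11. Genes carry Ensembl IDs in the count table, and 0 of the 32883 IDs matched a symbol in the gene tables used here. The labelled identities were therefore not checked against such markers, and genes are given by position or ID, with no name or role. The columns were read as PAEC or PASMC from the letters in their names. No label states this reading, and the label for cell type reads PASMC on every sample. Each direction given here rests on that reading. An informal look at genes by their spans, which gives no firm gene names and no values, left the endothelial identity of the libraries read as PAEC unclear. PAEC and PASMC are therefore used as names of the groups as read, not as cell types established from these data.

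The 3 PAEC siControl libraries held 32407470, 30266992 and 32297970 counts, and the 3 PASMC siControl libraries 27008812, 29866338 and 34268854. Levels are given as CPM, the counts of a gene per 1e6 counts of a library size that was scaled by TMM, a method that sets the bulk of genes to a common level. The correlation of log2 CPM across genes was 0.976 to 0.979 in the 6 pairs of libraries of one group and 0.886 to 0.894 in the 9 pairs of different cell types. On principal component analysis of the 6 libraries, component 1, with 76.0% of the variance, set the cell types apart, with PAEC at 79.3, 79.8 and 76.7 and PASMC at -79.6, -79.1 and -77.1. Component 2, with 7.16%, spread the PAEC libraries from -33.2 for replicate 1 to 43.7 for replicate 3. The cell types also differed on chromosome Y, which is outside the autosomal comparison. Counts there were 7257 to 9450 per library in PAEC siControl and 89 to 105 in PASMC siControl. Of 7 Y genes with at least 50 counts over the 12 libraries, 5 had 0 counts in all 6 PASMC libraries. The gene at Y:1217800-1238420, for example, had 2592, 2704 and 3644 counts in PAEC siControl and 0, 0 and 0 in PASMC siControl. A difference between source animals or cultures and a difference between cell types cannot be told apart in these libraries. This holds for the autosomal genes as well as for chromosome Y. In bulk RNA, fewer cells of one kind in a culture and less RNA per cell cannot be told apart either.

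The first question was how many genes differed between the cell types and by how much. Of the 14037 autosomal genes, 3900 (27.8%) were higher in PAEC and 3965 (28.2%) were higher in PASMC (adjusted p under 0.05 by edgeR's quasi-likelihood test with Benjamini-Hochberg adjustment), together 56.0%. The median absolute log2 difference of these called genes was 0.81. In 8459 of the 14037 genes, the CPM of the 3 PAEC and the 3 PASMC siControl libraries did not overlap. Differences of at least 2-fold were as frequent in each direction, with 1595 genes higher in PAEC (11.4%) and 1605 higher in PASMC (11.4%). At 4-fold or more the balance moved, with 640 genes higher in PAEC (4.56%) and 886 higher in PASMC (6.31%). At 16-fold or more there were 179 genes higher in PAEC (1.28%) and 319 higher in PASMC (2.27%). Of these, 41 and 148 had 0 counts in the lower cell type, where the fitted fold depends on the prior count. Such genes were then set to 3 counts over the 3 libraries, an approximate upper limit for a count of 0. At that limit, 167 genes higher in PAEC and 244 higher in PASMC remained past 16-fold. The even split among all called genes depended on the scaling. With library totals instead of TMM factors, the counts were 2031 towards PAEC and 7227 towards PASMC, of which 950 and 2979 by at least 2-fold. That scaling gave a median log2 difference of all autosomal genes of -0.47 in place of -0.03, a shift of -0.44, so a gene's difference is best read relative to the median of all genes.

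**Figure D1:**
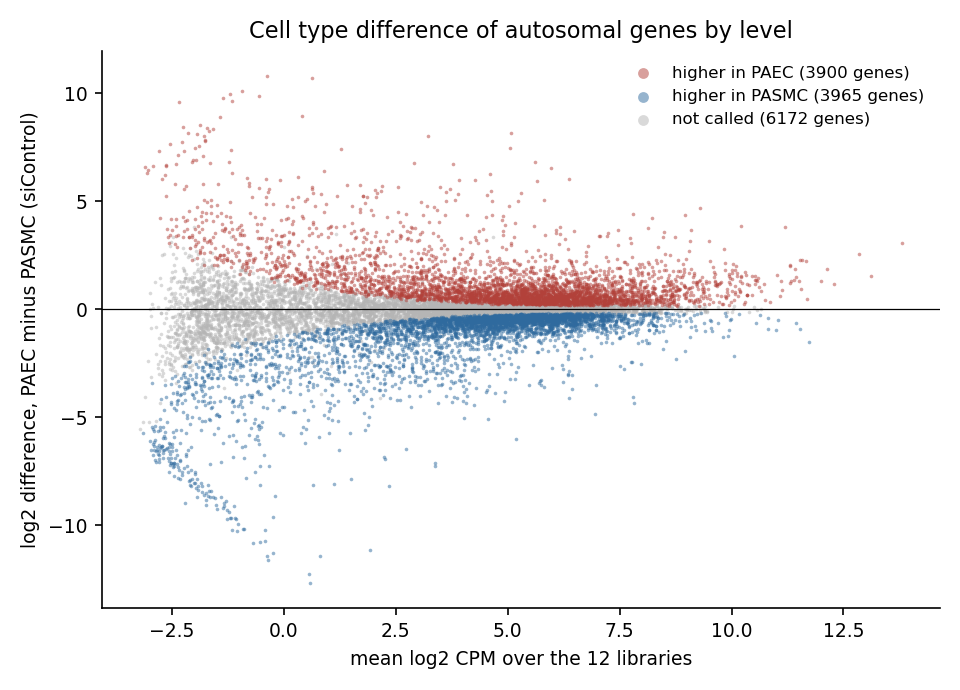
Each point is 1 of 14037 autosomal genes, with its mean log2 CPM over the 12 libraries on the horizontal axis and its log2 difference (PAEC minus PASMC, siControl) on the vertical axis. The 3900 genes called higher in PAEC are red, the 3965 called higher in PASMC are blue and genes not called are grey. Points along the lower left edge are genes with 0 counts in PAEC, whose fitted value depends on the prior count. Of the genes in the lowest quintile of level, 8.90% differed by 4-fold or more towards PAEC and 16.1% towards PASMC. Of those in the highest quintile, 3.56% did so towards PAEC and 1.35% towards PASMC.

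The same cell type difference was then read in the 6 siNRF2 libraries, none of which enters the siControl difference. There, 3848 genes (27.4%) had the higher level in PAEC and 3991 (28.4%) in PASMC, together 55.8%. Of the 3900 genes higher in PAEC under siControl, 2622 (67.2%) were called higher in PAEC under siNRF2 too, and 3296 (84.5%) had the same sign. Another 201 were called in the opposite direction. Of the 3965 higher in PASMC, 2523 (63.6%) were called the same way under siNRF2, 3290 (83.0%) had the same sign and 193 were called the other way. Among genes that differed by at least 2-fold, 1313 of 1595 (82.3%) and 1343 of 1605 (83.7%) were called in the same direction, and 5 and 4 in the opposite one. Of the genes at 16-fold or more, 151 of 179 (84.4%) higher in PAEC and 285 of 319 (89.3%) higher in PASMC were called in the same direction, and 0 were called in the opposite one. The median log2 difference under siControl was 5.27 for those higher in PAEC and -6.06 for those higher in PASMC, or 4.89 and -4.56 with genes at 0 counts set to their limit. Among the 6172 genes not called under siControl, 2300 (37.3%) were called under siNRF2. The test of the difference between the 2 comparisons (the interaction) called 4075 autosomal genes (29.0%), of which 2206 (15.7%) had the more positive difference under siControl and 1869 (13.3%) under siNRF2. The 2 comparisons share no library, but the fit shares 1 estimate of the spread over all 12. With each comparison fitted on its own 6 libraries, 2455 genes were called higher in PAEC in both and 2478 higher in PASMC in both.

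**Figure D2:**
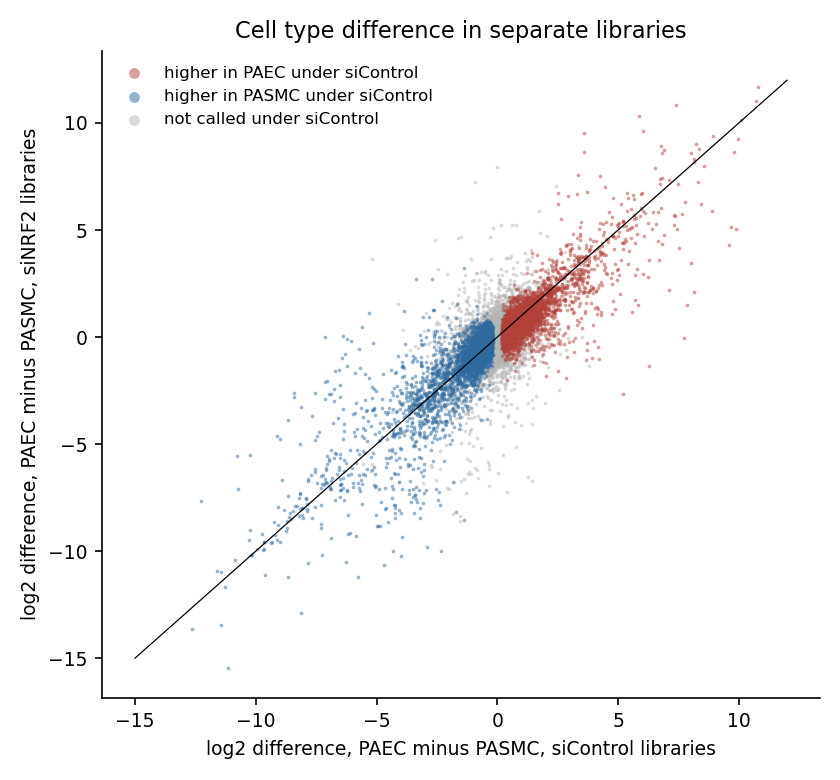
Log2 difference (PAEC minus PASMC) of each of 14037 autosomal genes in the siControl libraries (horizontal axis) and in the siNRF2 libraries (vertical axis), with the line of equal values. Red and blue mark genes called higher in PAEC and in PASMC under siControl, and grey those not called. Of the genes called at 2-fold or more, 5 of 1595 and 4 of 1605 were called in the opposite direction under siNRF2.

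The cell types differed in how their read counts were shared out among genes, here with no correction for exon length. The most abundant autosomal gene of each library took 3.14 ± 0.165% of all counts in PAEC siControl and 0.579 ± 0.0111% in PASMC siControl (mean ± SD, n = 3 each). The 10 most abundant took 9.95 ± 0.285% in PAEC and 4.49 ± 0.118% in PASMC, and the 100 most abundant 26.9 ± 0.385% and 17.5 ± 0.260%. For 1000 genes the shares were 58.5 ± 0.527% and 49.1 ± 0.349%. Each of these 4 shares was higher in all 3 PAEC libraries than in any PASMC library (exact permutation test, two-sided, p = 0.1, the smallest that 3 against 3 allows). The number of autosomal genes at 100 CPM or more was 1970 ± 12 in PAEC and 1790 ± 40.7 in PASMC, while the number at 1 CPM or more was 11800 ± 24 and 11900 ± 34.6. As a description of what the called genes weigh, the 1595 genes higher in PAEC by 2-fold or more held 35.6 ± 0.845% of PAEC counts and 14.0 ± 0.249% of PASMC counts. The 1605 genes higher in PASMC by 2-fold or more held 1.82 ± 0.0595% of PAEC counts and 8.42 ± 0.0973% of PASMC counts. In the siNRF2 libraries, which did not choose the genes, the first list held 36.0 ± 0.362% in PAEC and 16.5 ± 0.481% in PASMC, and the second 1.70 ± 0.0317% and 7.51 ± 0.118%. Counts of mitochondrial genes, which are outside the autosomal shares, took 3.83 ± 0.652% in PAEC siControl and 2.98 ± 0.329% in PASMC siControl (exact permutation test, two-sided, p = 0.2).

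**Figure D3:**
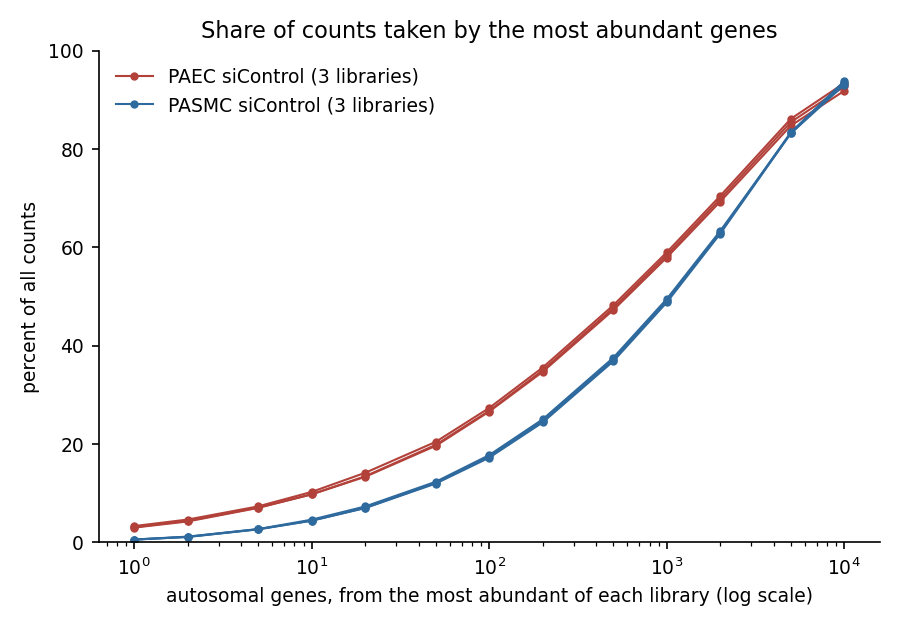
Percent of all counts (vertical axis) taken by the most abundant autosomal genes of each library, against the number of genes counted (horizontal axis, log scale). Red lines are the 3 PAEC siControl libraries and blue lines the 3 PASMC siControl libraries. Up to 5000 genes the PAEC lines run above the PASMC lines, at 9.95% and 4.49% for 10 genes and 58.5% and 49.1% for 1000.

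All 10 of the most abundant autosomal genes in PAEC siControl (ranked by mean CPM) were called higher in PAEC, by 1.16 to 3.80 on the log2 scale. Of the 10 most abundant in PASMC siControl, 6 were called higher in PASMC and 4 higher in PAEC, and these 4 belonged to both lists. Ranking by the level in 1 cell type favours a call towards that cell type. Over all autosomal genes, 27.8% were called higher in PAEC and 28.2% higher in PASMC. In the highest quintile of genes by mean level over the 12 libraries, the shares were 47.7% and 26.2%. The genes described next from these lists were chosen after their values were seen. The most abundant gene of PAEC, at chr9:78900103-78969078 (minus strand, 46 exons), had 38000, 34400 and 35600 CPM in PAEC siControl and 4460, 4010 and 4560 CPM in PASMC siControl. The groups were far apart, with a log2 difference of 3.05 (SE 0.081, adjusted p = 4e-16, edgeR), and in the siNRF2 libraries the difference was 2.65. A second gene with many exons, at chr10:82745801-82762789 (plus strand, 51 exons), had 15100, 14000 and 13300 CPM in PAEC and 2390, 2490 and 2350 CPM in PASMC. Its log2 difference was 2.55 (SE 0.070, adjusted p = 7e-16, edgeR) under siControl and 2.65 under siNRF2.

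The largest log2 difference of the 10 in PAEC belonged to a short gene at chr4:170856751-170860225 (minus strand, 4 exons, 676 exon bases). It had 9030, 9180 and 9550 CPM in PAEC and 594, 651 and 752 CPM in PASMC, a log2 difference of 3.80 (SE 0.11, adjusted p = 1.8e-15, edgeR). Per kilobase of exon its level was 13700 CPM in PAEC and 985 CPM in PASMC, against 4290 and 517 CPM per kilobase for the longer gene on chromosome 9, so the short gene ranked above it on that scale in both cell types. The gene at chr8:85838869-85840818 (minus strand, 7 exons) was among the 10 in both cell types and the most abundant gene of PASMC, yet was higher in PAEC. It had 13000, 14200 and 15300 CPM in PAEC and 4770, 5130 and 4670 CPM in PASMC (log2 difference 1.55, SE 0.069).

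Among the abundant genes higher in PASMC, the difference was greatest at chr6:127941526-128080889 (plus strand, 22 exons). That gene had 590, 591 and 570 CPM in PAEC siControl and 2460, 2940 and 2490 CPM in PASMC siControl (log2 difference -2.17, SE 0.12, adjusted p = 8.5e-11, edgeR). Under siNRF2 it was at 262, 380 and 267 CPM in PAEC and 2900, 2750 and 2740 CPM in PASMC, and the difference was larger there (interaction 1.03, adjusted p = 0.00024, edgeR). The gene at chr18:47500330-47577819 (minus strand, 10 exons) went the other way in this respect. It had 1460, 1530 and 1740 CPM in PAEC siControl and 4410, 5160 and 4150 CPM in PASMC siControl, a log2 difference of -1.54 (SE 0.086), but 3790, 3390 and 3650 CPM in PAEC siNRF2 and 4750, 5150 and 5020 CPM in PASMC siNRF2. The difference under siNRF2 was -0.46, smaller in size by the interaction test (-1.07, adjusted p = 7.7e-06, edgeR). Of 2 other genes in the list, the one at chr12:13715843-13718841 had a log2 difference of -0.92 (SE 0.065) and the one at chr7:38742051-38782323 of -0.97 (SE 0.12). The smallest differences of the 6 were -0.49 (SE 0.082) at chr1:102900286-102909707 and -0.66 (SE 0.14) at chr19:11307967-11308740. The gene on chromosome 19, of 382 exon bases, was not called under siNRF2 (log2 difference -0.28, adjusted p = 0.11, edgeR). With library totals instead of TMM factors, log2 differences shift by about -0.44, so these smaller values depend on the scaling in size.

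The genes with the largest differences were taken among called genes with at least 10 CPM on average in the higher cell type and no overlap of libraries under either siRNA, a rule that 2426 genes met towards PAEC and 2068 towards PASMC. ENSRNOG00000020560 (chr1:201620642-201689759, plus strand, 49 exons) had 24.6, 20.9 and 21.6 CPM in PAEC siControl and 0.0309, 0 and 0 CPM in PASMC siControl. In counts these were 1856 in PAEC and 1 in PASMC, a ratio of 2410 after scaling, with a 95% exact interval of 433 to 95400 for counting error only. Its log2 difference was 10.7 (SE 0.36, adjusted p = 8.2e-15, edgeR). In the siNRF2 libraries PAEC had 45.8, 47.5 and 47.0 CPM and PASMC 0, 0 and 0.0533 CPM. ENSRNOG00000021524 (chr11:30904733-30915225, plus strand, 3 exons) showed the next largest difference, with 14.6, 14.7 and 17.4 CPM in PAEC siControl and 0, 0.0876 and 0 CPM in PASMC siControl. The ratio was 560 (95% exact interval 191 to 2720, from 1292 counts in PAEC and 3 in PASMC) and the log2 difference 8.94 (SE 0.50, adjusted p = 1.5e-10, edgeR). Both genes were near 0 in PASMC under either siRNA.

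Towards PASMC, ENSRNOG00000011423 (chr17:8878270-8884423, plus strand, 3 exons) had 0, 0 and 0 CPM in PAEC siControl and 25.9, 22.7 and 28.0 CPM in PASMC siControl. It was at least 709-fold lower in PAEC, taking 3 counts over the 3 PAEC libraries as the upper limit that a count of 0 allows (adjusted p = 8.9e-13, edgeR). Under siNRF2 it was again at 0 in the 3 PAEC libraries and at 59.1, 45.4 and 43.9 CPM in PASMC. ENSRNOG00000057221 (chr8:44136496-44159010, plus strand, 7 exons) also had 0, 0 and 0 CPM in PAEC siControl, against 18.0, 20.3 and 20 CPM in PASMC siControl. It was at least 538-fold lower in PAEC on the same limit, with an exact interval from 437-fold (adjusted p = 4.2e-14, edgeR). Under siNRF2 a few counts appeared in each PAEC library, at 0.15, 0.0745 and 0.104 CPM, beside 22.7, 21.7 and 24.1 CPM in PASMC. The siNRF2 values of these 4 genes were part of the rule that chose them and are given as a description.

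**Figure D4:**
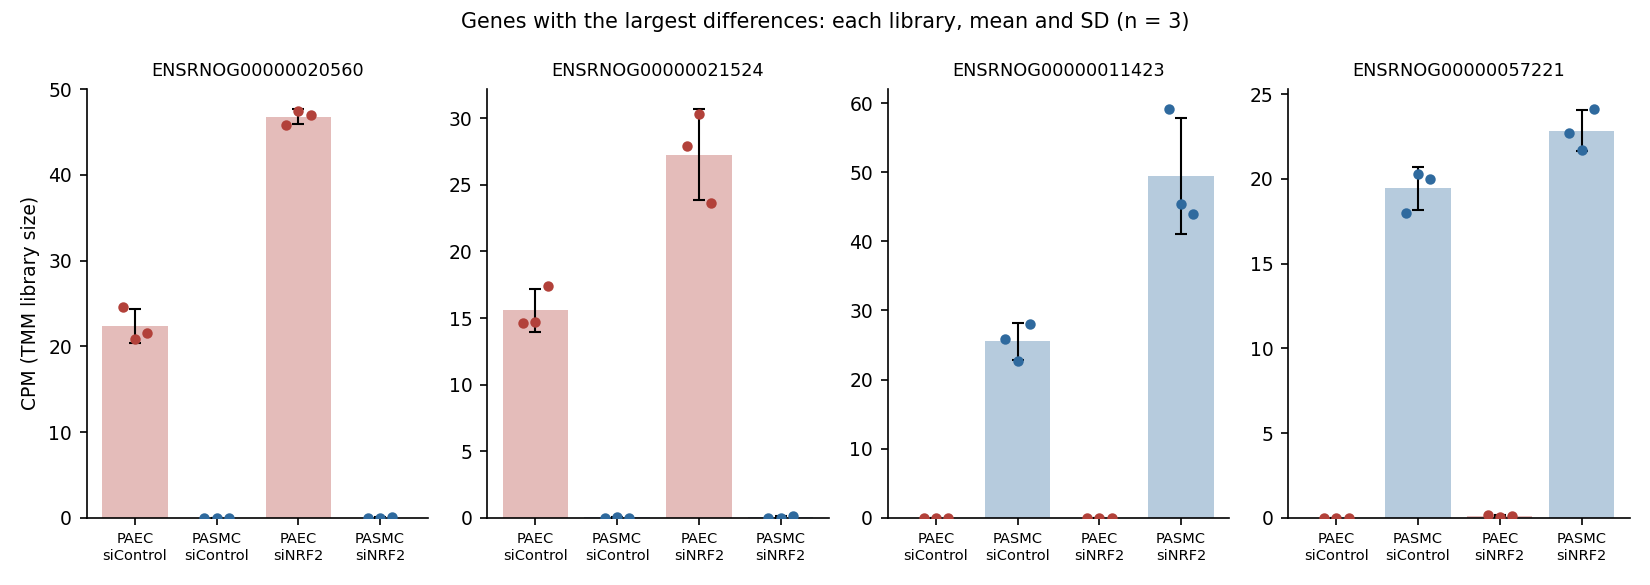
CPM of the 4 genes with the largest differences in each of the 12 libraries, with 1 panel per gene. In each panel PAEC siControl, PASMC siControl, PAEC siNRF2 and PASMC siNRF2 run from left to right, and bars and whiskers are the mean and SD (n = 3) with points for libraries. ENSRNOG00000020560 and ENSRNOG00000021524 sit near 0 in PASMC, and ENSRNOG00000011423 and ENSRNOG00000057221 at or near 0 in PAEC.

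Genes with at least 10 counts in each library of 1 cell type and 0 counts in each library of the other were counted next, without a test. Of 31044 autosomal genes in the count table, 22 in PAEC and 83 in PASMC met this rule under siControl. Of these, 22 and 81 passed the filter on low counts. Most were expressed at a low level, with means of 0.532 to 6.98 CPM in PAEC (median 1.27) and 0.302 to 25.5 CPM in PASMC (median 1.29). They lay on 11 chromosomes for PAEC and 19 for PASMC. The siNRF2 libraries, which did not choose them, gave a second reading. There, 16 of the 22 and 69 of the 83 again had at least 10 counts in each library of the same cell type, and 12 and 62 were again at 0 in each library of the other. Where counts did appear in the other cell type, they summed to at most 19 over its 3 libraries for the PAEC genes and 12 for the PASMC genes. The counts depended on the minimum, with 43 PAEC and 136 PASMC genes at 5 or more counts per library and 14 and 54 at 20 or more. The rule used raw counts, while TMM factors were 0.865 to 0.877 in PAEC siControl and 1.15 to 1.20 in PASMC siControl. Scaled library sizes were therefore larger in PASMC, where 10 counts stood for a lower CPM. The numbers of the 2 cell types are thus not on a common scale.

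The most abundant of the 22 lay at chr1:203160323-203228318 (plus strand, 14 exons), with 213, 155 and 212 counts in PAEC siControl, at least 251-fold above the limit for PASMC, and 301, 310 and 452 counts in PAEC siNRF2. A gene of 2 exons at chr8:76449081-76452554 had 102, 108 and 142 counts in PAEC siControl and at least a 153-fold difference. Both stayed at 0 in PASMC siNRF2. By contrast, the gene at chr2:164118191-164126783 had 92, 107 and 107 counts in PAEC siControl and 3, 6 and 6 counts in PASMC siNRF2. Detection in PAEC itself depended on the siRNA for the gene at chr16:81824111-81834945, which had 73, 101 and 79 counts in PAEC siControl and 4, 0 and 2 in PAEC siNRF2. Of the 22, 4 genes had fewer than 10 counts in each PAEC siNRF2 library, and of the 83, 3 genes did so in PASMC siNRF2.

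Beyond the genes on chromosomes 17 and 8 named above, the most abundant of the 83 lay at chr5:49311030-49333056 (plus strand, 2 exons), with 452, 399 and 455 counts in PASMC siControl and at least a 335-fold difference. The gene at chr16:36371489-36373546 had 386, 310 and 491 counts in PASMC siControl and at least a 304-fold difference, and the one at chr8:23113048-23121761 had 269, 311 and 494 counts and at least a 275-fold difference. All 3 were at 0 in the PAEC libraries of both siRNAs. These single genes were also chosen after their values were seen.

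Genes that differed in the same direction were next looked for side by side on the chromosomes. Runs were defined as 4 or more consecutive tested autosomal genes that were called in 1 direction and differed by at least 2-fold, which 22.8% of autosomal genes did in either direction. There were 28 runs, 11 higher in PAEC with 52 genes and 17 higher in PASMC with 78 genes. In the siNRF2 libraries 47 of the 52 and 71 of the 78 genes were called in the same direction, and in 20 of the 28 runs every gene was. Among all genes at 2-fold or more, the shares called in the same direction were 82.3% towards PAEC and 83.7% towards PASMC. In 1 run, on chromosome 5, a pair of genes shared exon bases, so their counts may share reads. The number of runs depended on the settings, at 16 with no filter on low counts, 69 with library totals and 19 to 23 with any 1 library left out.

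One of the 2 longest runs higher in PAEC held 7 genes on chromosome 6, between 132936970 and 134629138, with a median log2 difference of 6.24, spanning 3.55 to 8.03 (highest adjusted p = 0.00085, edgeR), or 4.52 with its 2 genes at 0 counts in PASMC set to their limit. Its members ranged from 0.545 to 222 CPM in PAEC siControl on average, while none passed 2.69 CPM in PASMC siControl. The last gene, at 134627278-134629138 (2 exons), had 227, 232 and 208 CPM in PAEC and 1.18, 0.350 and 0.997 CPM in PASMC, a log2 difference of 8.03 (SE 0.24). The second, at 133552821-133583751 (6 exons), had 207, 205 and 195 CPM in PAEC and 2.63, 3.18 and 2.26 CPM in PASMC, a log2 difference of 6.24 (SE 0.19). In both genes the lowest PAEC library lay far above the highest PASMC library, while the groups did not overlap in 8459 of all 14037 autosomal genes. The run also took in 3 genes of a single exon, of 80 to 82 bases, at the low end of its levels. At 133795080-133795160, for example, PAEC had 0.212, 0.528 and 0.895 CPM and PASMC 0, 0 and 0 CPM, at least a 19.5-fold difference. All 7 genes were called higher in PAEC under siNRF2, with a median of 5.69.

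A second run of 7 genes lay on chromosome 10, between 84131495 and 84202688, a span of 71.2 kb in which all 7 genes are on the plus strand. Its members ranged from 3.43 to 27.1 CPM on average in PAEC siControl and from 0.0531 to 1.16 CPM in PASMC siControl. The fifth, at 84167331-84169907 (2 exons), had 25.7, 26.8 and 26.3 CPM in PAEC and 1.33, 0.409 and 1.73 CPM in PASMC (log2 difference 4.48, SE 0.29, the smallest of the run). The sixth, at 84182118-84195796 (4 exons), had 32, 25 and 24.3 CPM in PAEC and 0.402, 0.642 and 0.511 CPM in PASMC (log2 difference 5.70, SE 0.22). In no member did the groups overlap, as in 8459 of all 14037 autosomal genes. Under siNRF2 the median was 4.57 and all 7 genes were called. The interaction test was passed by 2 of them, the first, with the larger difference under siNRF2 (a fitted 10.3, where the 3 PASMC libraries had 0 CPM), and the sixth, with the larger difference under siControl (adjusted p = 0.019 and 0.0027, edgeR).

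Runs of 5 and of 4 genes higher in PAEC came next, and the 3 described here had smaller medians. Since 7 runs had 4 genes, the one with the largest median difference was taken. On chromosome 4, 5 genes on the minus strand between 81818569 and 82173207 had a median log2 difference of 3.36. Only the first was abundant, at 59.8, 60.2 and 66.1 CPM in PAEC and 30.5, 27.5 and 27.3 CPM in PASMC (log2 difference 1.13, SE 0.096). The other 4 averaged at most a few CPM, and the call of the last, at 82170387-82173207 (1.67 ± 0.381 CPM in PAEC and 0.489 ± 0.420 CPM in PASMC, mean ± SD, n = 3), was lost when any 1 of 5 of the 6 siControl libraries was left out. The call of the second, at 82131329-82133605, was lost without PAEC siControl replicate 1 and without PASMC siControl replicate 2 or 3. Of the 5, 4 were called under siNRF2. Close by on the same chromosome, 4 genes between 82278758 and 82304541 formed a run in the opposite direction, with 0 counts in the 3 PAEC siControl libraries and means of 0.184 to 3.21 CPM in PASMC siControl.

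On chromosome 18, 5 plus-strand genes between 30836331 and 30872006, 4 of them with a single exon, had log2 differences of 1.20 to 1.96. The last of these, at 30869628-30872006, had 20.2, 18.7 and 19.8 CPM in PAEC and 5.85, 4.06 and 5.16 CPM in PASMC. A further run of 4 genes higher in PAEC lay just before it, between 30801482 and 30822735. Neighbours of this kind can be near-identical copies, and no source used here tells how reads with several matches were counted, so the split of counts among them is uncertain. The call of the second gene, at 30840868-30843291, was lost without PAEC siControl replicate 1, without PASMC siControl replicate 1 and with library totals. On chromosome 17, 4 genes between 69654170 and 69862110 had a median of 3.32. The third, at 69806065-69827112 (9 exons), had 211, 254 and 289 CPM in PAEC siControl and 66.9, 89.6 and 63.4 CPM in PASMC siControl. Its neighbour at 69835330-69862110 (9 exons) had 84.0, 80.8 and 93.3 CPM in PAEC and 8.97, 10.6 and 8.66 CPM in PASMC. Both differed more under siNRF2 (log2 2.82 against 1.78 for the third and 3.83 against 3.20 for its neighbour, interaction adjusted p = 0.00052 and 0.0079, edgeR), as did the first gene of the run.

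Of the runs higher in PASMC, the longest held 8 genes on chromosome 3, between 61433863 and 61670282, with a median log2 difference of -6.96, spanning -9.39 to -1.57 (highest adjusted p = 0.013, edgeR), or -5.67 with its 2 genes at 0 counts in PAEC set to their limit. The first gene, at 61433863-61494778 (15 exons, minus strand), was expressed in both cell types, at 9.67, 12.3 and 14.8 CPM in PAEC and 37.2, 39.4 and 32.0 CPM in PASMC. The other 7, on the plus strand, were at or close to 0 in PAEC. The second, at 61590376-61593692, had 0, 0.0754 and 0 CPM in PAEC and 11.8, 11.6 and 10.9 CPM in PASMC, a ratio of 472 towards PASMC (95% exact interval 130 to 3900). The fourth, at 61613774-61617367, had 0, 0 and 0.215 CPM in PAEC and 6.53, 5.37 and 5.67 CPM in PASMC (log2 difference -6.26, SE 0.63). The third, at 61604672-61606400, had 0 CPM in each PAEC library and 3.71, 2.10 and 2.09 CPM in PASMC, at least 71.3-fold lower in PAEC. All 8 were called in the same direction under siNRF2, where genes 2 to 5 of the run had 0 CPM in each PAEC library. The weakest call was that of the last gene, at 61658245-61670282, which had 0.0353, 0 and 0 CPM in PAEC and 0.340, 0 and 1.26 CPM in PASMC and was not called without PASMC siControl replicate 3 or with limma voom.

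On chromosome 9, 7 genes between 19446638 and 19978013 were higher in PASMC by smaller amounts, with a median of -1.85 (range -3.55 to -1.24), and all 7 were called under siNRF2. The most abundant, at 19448269-19457946 (5 exons), had 54.4, 52.7 and 58.7 CPM in PAEC and 197, 215 and 184 CPM in PASMC (log2 difference -1.85, SE 0.092). On chromosome 7, 5 genes between 49047013 and 51353068 had a median of -4.07, and again all were called under siNRF2. There, the third gene, at 49763657-50034932 (49 exons), had 5.50, 6.07 and 8.99 CPM in PAEC and 134, 124 and 134 CPM in PASMC (log2 difference -4.25, SE 0.14). The first, at 49047013-49250957 (17 exons), had 45.4, 49.2 and 50.1 CPM in PAEC and 230, 277 and 197 CPM in PASMC (log2 difference -2.28, SE 0.10). In each of these 3 genes the PAEC libraries lay below all PASMC libraries. The groups did not overlap in 8459 of all 14037 autosomal genes.

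On chromosome 8, 5 genes between 82506934 and 84835060 had a median of -2.70. The third, at 82878941-82950273 (7 exons), had 2.26, 3.39 and 2.26 CPM in PAEC and 16.3, 20.4 and 14.5 CPM in PASMC. On chromosome 2, 5 genes between 263864331 and 264738257 had a median of -1.48, and 3 of them passed the interaction test. The last, at 264704769-264738257 (12 exons), had 0.670, 1.51 and 1.15 CPM in PAEC siControl and 15.7, 19.8 and 16.4 CPM in PASMC siControl (log2 difference -3.97, SE 0.30), against -2.63 under siNRF2. The second gene of this run has 1 exon of 86 bases within the span of the first on the same strand, and was not called under siNRF2 (adjusted p = 0.63, edgeR). A shorter run on chromosome 16, of 4 genes between 36258595 and 36388331, had 0 counts in the 3 PAEC siControl libraries at every gene and means of 1.13 to 11 CPM in PASMC siControl.

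**Figure D5:**
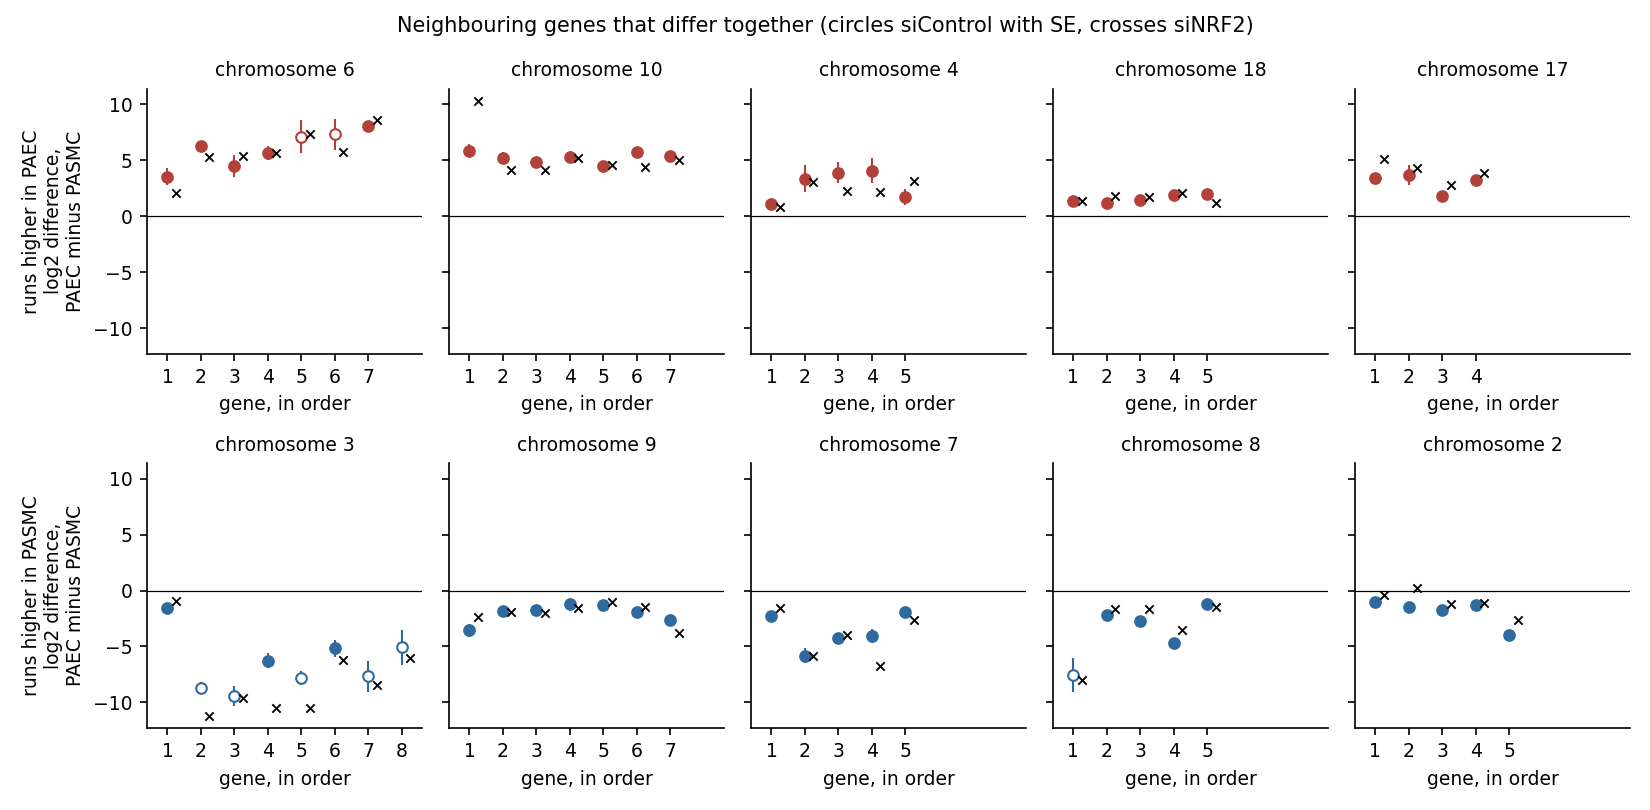
Log2 difference (PAEC minus PASMC) of each gene in 5 runs higher in PAEC (top row, red) and 5 higher in PASMC (bottom row, blue), taken by number of genes and then by median difference, with genes in their order along the chromosome. Circles are the siControl libraries with the SE of the fit, open circles are genes with at most 3 counts in the lower cell type, whose fitted value depends on the prior count, and crosses are the siNRF2 libraries. The crosses lie on the same side of 0 as the circles except at the second gene on chromosome 2.

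Over all adjacent pairs of tested genes, the correlation of the neighbours' log2 differences was described by the gap between them. Pearson's r was 0.27 over 4764 pairs with a gap of 0 to 10 kb, 0.13 over 5293 pairs at 10 to 100 kb, 0.054 over 2740 pairs at 100 kb to 1 Mb and -0.057 over 453 pairs further apart. For the 767 pairs with overlapping spans, which may share reads, it was 0.18. Where both neighbours were called, 62.8% of 1491 pairs at 0 to 10 kb had the same direction, against 58.0% of 1734 at 10 to 100 kb and 51.4% of 148 at over 1 Mb. These are descriptions across genes of the same 6 libraries, and genes are not independent replicates.

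The direction of the difference varied with the level of a gene. In the highest quintile of genes by mean level over the 12 libraries, 47.7% were called higher in PAEC and 26.2% higher in PASMC, with a median log2 difference of 0.17. In the lowest quintile, 12.6% were called higher in PAEC and 19.3% higher in PASMC, with a median of -0.27. The siNRF2 libraries gave medians of 0.17 and -0.24 for the same quintiles. With library totals the medians were -0.27 and -0.70, so the sign of the highest quintile depended on the scaling. Differences of 4-fold or more were found at all levels, with 8.90% of the lowest quintile higher in PAEC and 16.1% higher in PASMC, against 3.56% and 1.35% of the highest quintile. Levels in the lowest quintile were 0.0933 to 2.07 CPM. The fitted fold of a gene with 0 counts in 1 cell type depends on the prior count, so the shares of the quintiles are not on a common scale. Of 1007 genes of a single exon, 22.6% were called higher in PAEC and 17.9% higher in PASMC. Among genes of 21 or more exons the shares were 31.9% and 29.5% of 1897. The groups by exon number were not matched for level.

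A gene's surroundings were described in the same way. Genes were divided by the number of genes within 500 kb. In the tertile with the most neighbours (27 to 103), 32.6% were called higher in PAEC and 21.3% higher in PASMC, with a median log2 difference of 0.087. In the tertile with the fewest (0 to 14), 25% were called higher in PAEC and 34.1% higher in PASMC, with a median of -0.12. Under siNRF2 the signs were opposite, with medians of -0.14 in the dense tertile and 0.082 in the sparse tertile. The PAEC siControl libraries also differed among themselves along this axis. The dense tertile had a median of 0.17 for PAEC siControl replicate 1, 0.11 for replicate 2 and 0.013 for replicate 3, each against the mean of the PASMC siControl libraries, and without replicate 1 the fitted median was 0.045. With library totals both tertiles were below 0, at -0.35 and -0.56. By chromosome, the medians under siControl ran from -0.18 on chromosome 17, where 20.4% of 431 genes were called higher in PAEC and 31.3% higher in PASMC, to 0.051 on chromosome 19, where the shares were 30.7% and 24.1% of 424. On chromosome 2 the median was -0.16 under siControl and 0.049 under siNRF2. These medians therefore describe the siControl libraries only.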

How the data were processed

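RNA of 12 libraries was measured by RNA-seq, and the 6 siControl libraries are the subject here. Trizol RNA and a directional library kit were used, per the labels' protocols. The authors deposited 1 table of whole-number read counts per gene, not normalized, with exon coordinates. The submitters' processing notes name DESeq2 1.32.0, HISAT2 2.0.5 and featureCounts 2.0.3. Their settings, any genome build and any use of strand were not given in the sources used. Overlapping genes may therefore share reads. Positions are as in the table, counted from 1. They are not positions of GRCr8, since on 14 of 20 autosomes a gene ends beyond the last gene of that assembly.

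Groups of the samples came from their titles. Count columns were matched to the samples by the letters in the column names, a reading that no label states. Genes were kept by filterByExpr on the 4 groups (14584 genes, 14037 of them autosomal), scaled by TMM and fitted with edgeR 4.0.16 in R 4.3.3 over all 12 libraries with 1 coefficient per group (8 residual degrees of freedom, robust glmQLFit, glmQLFTest). The threshold was an adjusted p under 0.05 (Benjamini-Hochberg over all 14584 genes), and standard errors came from each log2 difference and its F statistic. Log2 CPM used a prior count of 2. Depth was 27008812 to 34317763 counts per library, and intervals cover counting error only. Libraries of a group differed beyond sampling noise (chi-square of at least 9.09 per gene in all 4 groups), so none were counted as duplicates. The steps were tested on simulated data, with 62, 71 and 67 genes changed by 1.5-fold, 2-fold and 4-fold among 14228 tested. Of these, 46.8%, 74.6% and 94% were called, and 5.23% of all calls were false. In the real data 56.0% of autosomal genes were called, so the simulation does not test the scaling under such broad differences.

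Genes named by ID were the 2 per direction with the largest log2 difference, and runs the 5 per direction with the most members, ties going to the larger median difference. Single genes beyond these were chosen after their values were seen. The comparison, the rules and the lists were chosen with earlier results of these data known. The 22 gene lists planned by symbol are not analysed here. Alternatives were library totals, DESeq2 1.42.0, limma 3.58.1 voom, no filter on low counts, the 6 siControl libraries alone, a replicate block and leaving out each library. Runs, level and density medians under each fit, shares of autosomal counts and a fit of the 6 siNRF2 libraries alone were added after seeing the data.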

Additional observations from a re-analysis of the deposited data

Results flagged for a closer look

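For ENSRNOG00000057221, the difference between the cell types was not the same under both siRNAs, by a test of that difference. The log2 difference under siControl minus that under siNRF2 was -4.61 (SE 0.94, adjusted p = 0.0062, edgeR). PAEC had 0 CPM in each siControl library and 0.15, 0.0745 and 0.104 CPM in the siNRF2 libraries, so the size of this value depends on the prior count of the fit and is no bound. Its direction rests on single-digit counts, with 4, 2 and 3 counts in the PAEC siNRF2 libraries.

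Counts on chromosome Y, which the autosomal comparison does not use, reached 9450 in the highest PAEC siControl library, against 105 in the highest PASMC siControl library. They were above the PASMC level in all 6 PAEC libraries, at 7257 to 10784. One Y gene, at Y:984689-985340, was counted in both cell types, with 63, 35 and 62 counts in PAEC siControl and 88, 81 and 96 in PASMC siControl.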

How the results depend on the processing

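Library totals in place of TMM factors changed the balance of directions most. Under siControl 2031 genes were then higher in PAEC and 7227 in PASMC (950 and 2979 by 2-fold or more), under siNRF2 1873 and 7276 (868 and 3087), and under both siRNAs 1336 and 5665. The number of runs was 69 with library totals, 16 with no filter on low counts, 99 for 3 or more genes and 7 at 4-fold or more. Genes detected in 1 cell type numbered 43 in PAEC and 136 in PASMC at 5 counts, and 14 and 54 at 20 counts. Leaving out 1 library gave 3492 to 3714 genes higher in PAEC, 3679 to 3973 higher in PASMC, 1451 to 1580 and 1552 to 1673 by 2-fold or more, and 19 to 23 runs. DESeq2 called 3978 and 4128 genes, limma voom 3981 and 4038, no filter 3823 and 3886, and the 6 siControl libraries alone 3514 and 3770, with 20 runs. With a replicate block 3839 and 3878 were called. Deviations of same-numbered PAEC and PASMC siControl libraries from their group means correlated at 0.0214, 0.015 and -0.0752. Those of differently numbered libraries correlated at -0.0863 to 0.069. These values showed no pairing by replicate number but cannot exclude it. Pairing of siControl with siNRF2 libraries was not looked at in this way. Of 62 genes named by ID or in a run shown, 0 were reversed and 4 lost their call under at least 1 alternative, while 5 had no value in the fit of the 6 siControl libraries alone, where they did not pass the filter. The alternatives for the symbol lists were not run.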
